A study of Mus musculus with 43 samples.

Results

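The regions described here are those that CLIP-seq and TAP-seq of DDX18 placed on spliceosomal U RNAs, the U3 RNA, 7SL, 7SK, tRNAs and a few further small RNAs in mouse embryonic stem cells (ESCs). They were chosen by the repeat class written in the detailed annotation of each deposited region (snRNA, scRNA, srpRNA, RNA or tRNA), leaving out ribosomal RNA and genes whose names start with Snora, Snord or Scarna. The rule found 57 and 67 regions in the 2 TAP libraries, and 57 and 63 regions in the 2 CLIP libraries. Together these were 244 of the 3195 regions of the 4 libraries. In the annotation 61 of them lay in an intron of a gene and 183 were intergenic, and 0 regions were excluded by their gene name.

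DDX18 belongs to the DEAD-box family of RNA helicases and is found mainly in the nucleolus. The series asked which RNA and DNA it binds and what its loss does to ESCs and early embryos. For TAP and CLIP, 129S1/SVImJ ESCs that carry DDX18 with a FLAG-Biotin tag, grown in serum and LIF, were crosslinked with ultraviolet light and nuclei were prepared. TAP used a tandem purification and no gel separation, while CLIP included the gel, so the libraries share the tagged line and differ in purification. There were 2 libraries of each, and all 4 came from tagged cells. RNA-seq of DDX18 knockdown (KD) compared 2 KD with 2 control libraries in each of CJ9 ESCs, p53 knockout (KO) ESCs and EZH2 KO ESCs, all of strain 129S1/SVImJ in serum and LIF. The p53 KO and EZH2 KO controls thus carried the same deletion as their KD cells. RNA-seq of 2 DDX18 KO and 2 wild-type (WT) E3.5 embryo libraries used embryos of C57/B6 mice heterozygous for DDX18. Further RNA-seq tables held ESCs with actinomycin D at 0, 5 or 10 ng/ml, p53 KO ESCs with actinomycin D at 0 or 10 ng/ml, ESCs with CX-5461 at 0 or 1 µM, and ESCs with cycloheximide at 0 or 10 µM. Nothing in the labels says that libraries of a group came from separate cultures, so p-values measure the spread between libraries, which may be technical.

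U1, U2, U4, U5 and U6 RNAs form the core of the spliceosome, which removes introns from pre-mRNA. U3 is a box C/D RNA that, despite its U name, works in the nucleolus on the first cleavages of the ribosomal RNA precursor. 7SL is the RNA of the signal recognition particle, which directs secreted proteins to the endoplasmic reticulum, and 7SK holds the elongation factor P-TEFb in an inactive form. These RNAs are encoded by many near-identical gene copies and pseudogenes, so a read can often be placed on several of them.

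One sequence is shown because the position of the regions on U1 differed between TAP and CLIP. It is the U1 gene copy LOC115489800 at chr3:96450446-96450611 on the plus strand (RefSeq, GRCm38.p6), which lies in intron 1 of BC107364 and is 166 bases long. The sequence serves as a map of U1 and not as an example of that difference. The regions on this copy were not wider in TAP, as given below. The first capitals mark ATACTTACCTG, bases 1 to 11, the 5′ end that pairs with the 5′ splice site of an intron. The second capitals mark AATTTGTGG, bases 126 to 134, the Sm site on which the ring of Sm proteins assembles.
U1: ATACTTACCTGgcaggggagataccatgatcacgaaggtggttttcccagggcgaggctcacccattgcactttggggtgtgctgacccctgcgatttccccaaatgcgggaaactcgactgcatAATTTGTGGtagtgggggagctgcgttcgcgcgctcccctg
Searched on both strands, the first motif was in 3 of 32851 RefSeq promoter windows (0.00913%) and the second in 55 (0.167%). The other RNAs are given by name and position.

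The small RNA regions took a larger share of the TAP libraries than of the CLIP libraries. They made up 8.98% and 9.04% of regions in TAP, against 6.48% and 6.71% in CLIP. The means were 9.01% ± 0.05 for TAP and 6.59% ± 0.16 for CLIP (SD, n = 2 each), a difference of 2.42 percentage points. Both TAP libraries lay above both CLIP libraries, and the two-sided exact permutation test gave p = 0.333, the smallest p that 2 libraries against 2 allow. The 95% exact binomial intervals ran from 6.87% to 11.5% and from 7.08% to 11.3% for TAP, and from 4.94% to 8.31% and from 5.19% to 8.5% for CLIP, covering counting error only. The number of small RNA regions overlapped between the methods, while the regions outside the chosen, snoRNA and ribosomal RNA groups numbered 338 and 421 in TAP, against 589 and 632 in CLIP. Ribosomal RNA regions took 23.5% and 20.2% of TAP libraries and 16.6% and 15.7% of CLIP libraries, and snoRNA regions took 14.3% and 13.9% of TAP and 10.0% and 10.3% of CLIP. The higher share in TAP was therefore seen in all 3 groups of structured RNA.

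Each region carries a score given by the authors and spans 1 or more windows of 100 bases. The product of score and windows was a whole number, within a relative tolerance of 1e-05, for 98.7% to 99.2% of the regions of a library. That product is called the window total below. What the score counts, and the depth behind it, are not given in the sources used here, so scores were ranked within their library. The median small RNA region stood at the 56.4 and 62.3 percentiles of its TAP library, against the 69.3 and 68.1 percentiles of its CLIP library. Ribosomal RNA regions stood higher in every library, at 85.2 and 87.7 in TAP and 90.5 and 91.2 in CLIP. snoRNA regions stood lower, at 49.4 and 55.1 in TAP and 55.1 and 56.8 in CLIP, and the remaining regions lower still, at 30.3 and 32.9 in TAP and 39.5 and 37.5 in CLIP. The small RNA regions held 0.475% and 0.605% of the summed score in TAP, against 0.380% and 0.363% in CLIP, while ribosomal RNA held 85.0% and 83.3% in TAP and 88.4% and 87.3% in CLIP.

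U1 had the most regions of any class and U3 had the highest share of the score in TAP. U1 had 20 and 22 regions in TAP, and 19 and 22 in CLIP. U2, which pairs with the branch point of the intron, had 11 and 13 regions in TAP, and 12 and 11 in CLIP. U5, which holds the ends of the exons, had 2 and 4 regions in TAP, and 3 and 4 in CLIP. Under the rule no library had a region annotated to U4 or U6, the pair that enters the spliceosome together. The spliceosomal U RNAs that the rule found were thus U1, U2 and U5. Genes whose regions were annotated to their own promoter fell outside it, among them Rnu12, given below. U3 had 7 regions in every library. 7SL had 7 and 6 in TAP, and 6 and 7 in CLIP. 7SK had 4 and 4 in TAP, and 5 and 6 in CLIP.

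**Figure D1:**
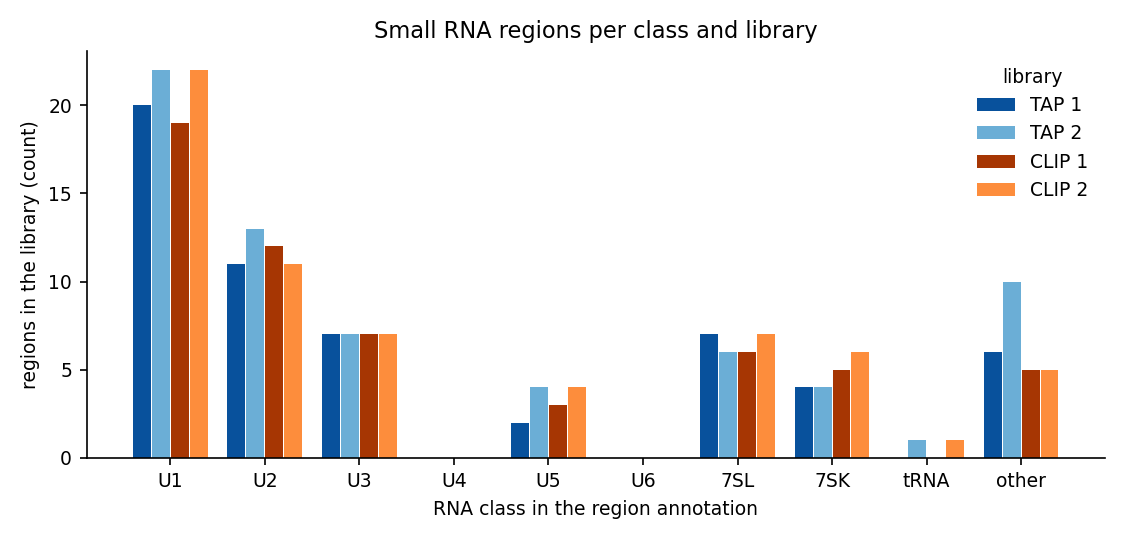
Number of regions (vertical axis) of each RNA class (horizontal axis) in the TAP libraries (blue) and the CLIP libraries (orange), 1 bar per library. U1 reached 22 regions in TAP 2 and in CLIP 2, U3 had 7 in every library, and U4 and U6 had 0.

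tRNAs, the adaptors that bring amino acids to the ribosome, were nearly absent. A region on the glutamate tRNA gene n-TEctc6 (chr1:171103001-171103100) had a score of 10 in TAP 2. A region on the aspartate tRNA gene n-TDgtc11 (chr13:21911301-21911400) had a score of 16 in CLIP 2. Neither was seen in a second library, and each lay in the lower part of its library, at the 14.2 and 33.3 percentiles. The RefSeq table lists 430 tRNA genes, of which these 2 carried a region, and 1004 snRNA genes, of which 53 carried a region of any class and 42 a region chosen here. The smallest score in any TAP library was 8 and in any CLIP library 9.33, so a tRNA below that level would not be listed.

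The remaining regions, 6 and 10 in TAP and 5 and 5 in CLIP, were annotated to U14, U17, the Y RNAs HY1 and HY3, and 4.5S RNA. U14 and U17 are snoRNAs by function although their annotation class is a different one, and they lay in introns of Hspa8 and in the Snhg3 locus. U14 had 3 and 3 regions in TAP, against 1 and 1 in CLIP, where the regions at the other U14 loci did not carry this annotation. HY3, a Y RNA bound by the Ro protein, had 1 region in every library, with scores of 10 and 10 in TAP and 16 and 19 in CLIP. 

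A few copies carried nearly all of the score. U3 and 7SL together had 14 and 13 regions in TAP, and 13 and 14 in CLIP. U3 held 56.4% and 60.6% of the summed score of the small RNA regions in TAP, against 42.4% and 47.4% in CLIP. 7SL held 33.2% and 27.5% in TAP, against 49.9% and 43.4% in CLIP. By summed score U3 thus led 7SL in both TAP libraries and in CLIP 2, and 7SL led U3 in CLIP 1. By window total 7SL led U3 in both CLIP libraries, at 50.2% and 48.4% against 44.9% and 46.1%, and U3 led in both TAP libraries. For U3 and for 7SL, the TAP and CLIP shares of the summed score did not overlap. U1, with the most regions, held 4.62% and 4.83% in TAP and 3.20% and 4.53% in CLIP, and U2 held 3.15% and 3.57% in TAP and 2.49% and 2.45% in CLIP. 7SK held 0.85% and 0.663% in TAP and 0.951% and 1.07% in CLIP.

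**Figure D2:**
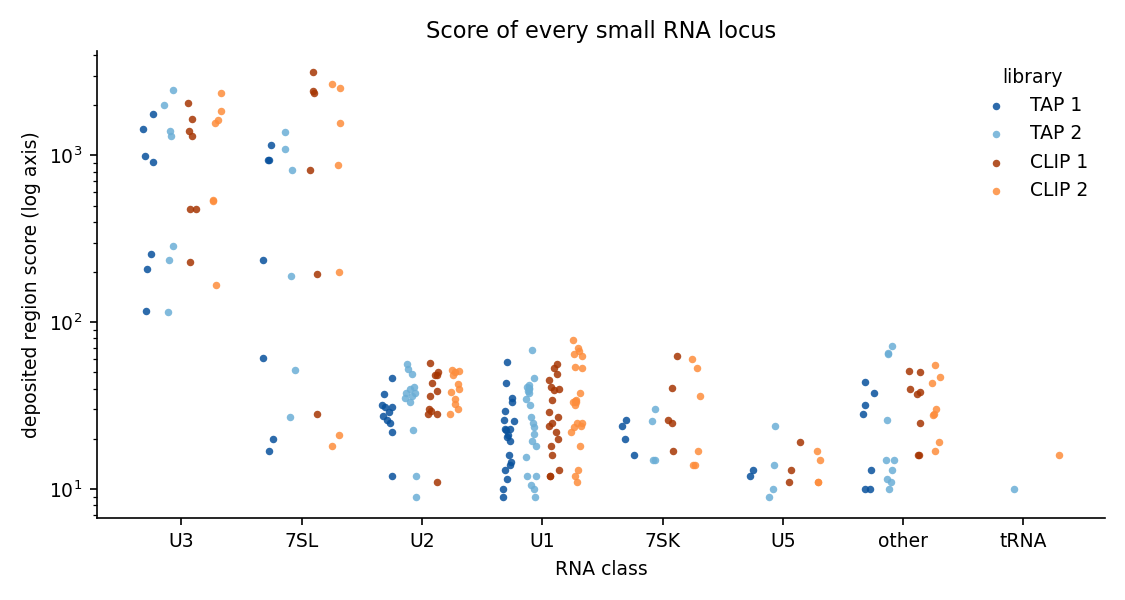
Deposited region score (vertical log axis) of every small RNA locus by RNA class (horizontal axis), 1 point per locus and library, TAP in blue and CLIP in orange. U3 and 7SL copies reached 2481 in TAP and 3160 in CLIP, while the highest U1 score was 78 and the highest U2 score 57.

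The 4 strongest U3 copies were the Rnu3b genes, which lie on the plus strand in intron 2 of Tex14. Rnu3b4 (chr11:87462201-87462500) had scores of 1779.5 and 2481 in TAP, against 1662 and 1846 in CLIP. Rnu3b3 (chr11:87448601-87448800) had 1443.5 and 2001 in TAP, against 2058.5 and 2352.5 in CLIP. As deposited, the Rnu3b4 scores overlapped between the methods, and the Rnu3b3 score of CLIP was above that of TAP in both libraries. Rnu3b2 (chr11:87471301-87471600) had 997 and 1402 in TAP and 1407 and 1626 in CLIP. Rnu3b1 (chr11:87443201-87443500) had 908 and 1299 in TAP and 1299 and 1564 in CLIP. Both copies were lowest in TAP 1 and highest in CLIP 2. The other 3 U3 loci are a pseudogene copy (Rnu3b-ps1, chr19:4078401-4078500) and intergenic copies at chr1:39519501-39519600 and chr11:96032601-96032900, with scores between 114.5 and 287 in TAP and between 167 and 540 in CLIP.

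The 7SL RNA showed its highest scores at 3 loci. Rn7s2 (chr12:69361101-69361500, minus strand) had scores of 936 and 1088 in TAP, against 2352.5 and 2548 in CLIP. An intergenic 7SL copy at chr6:69516301-69516600 had 1155 and 1377 in TAP, against 2417 and 2677 in CLIP. A copy in intron 2 of Zfp949 (chr9:88553201-88553400) had scores of 932 and 821 in TAP, against 3160 and 1562.5 in CLIP. Its CLIP 2 region was wider, with a window total of 3125. As deposited, both CLIP libraries were above both TAP libraries at all 3 loci. Over all loci found in all 4 libraries, the median log2 ratio of TAP to CLIP window totals was −0.82 as deposited. The lowest 7SL locus found in all 4 libraries had scores of 17 and 27 in TAP and 28 and 21 in CLIP, which overlap.

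The main genes of some of these RNAs fell outside the rule, because their regions were annotated to a promoter, an end or an exon of the gene itself. Outside the rule there were 18 loci on RefSeq small RNA genes, 12 of them snRNA genes, and 15 of the 18 carried such an annotation. Rnu3a, the further U3 gene, had scores of 535 and 756 in TAP, against 818 and 1023 in CLIP. Rn7s1, another 7SL gene on chromosome 12, had 958 and 1069.5 in TAP, against 2378 and 2579.5 in CLIP. Rn7sk, the 7SK gene, had 87 and 133 in TAP, against 103 and 123 in CLIP. The 7SK copies that the rule chose were all lower than this gene, with scores up to 30 in TAP and 62.5 in CLIP. Rmrp, the RNA of RNase MRP, which acts in ribosomal RNA processing, had 602 and 742 in TAP, against 2120 and 1628 in CLIP. Rnu12, of the minor spliceosome, had 15 and 21 in TAP and 13.5 and 14 in CLIP.

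Merged over the libraries on 1 strand, the regions formed 74 loci, and 55 of them (74.3%) were found in all 4 libraries. The share was 92.3% for ribosomal RNA loci, 65.2% for snoRNA loci, 30.2% for the remaining loci and 44.5% over all 1178 loci. By class, 7 of 7 U3 loci, 6 of 7 7SL loci, 19 of 24 U1 loci, 11 of 13 U2 loci, 4 of 6 7SK loci and 1 of 5 U5 loci were in all 4 libraries. No small RNA locus had a region on the opposite strand. The U1 copies clustered, with 8 loci within 160.5 kb of chromosome 3 and 7 loci within 499 kb of chromosome 12. U5 copies lay in 2 groups, 3 loci within 21.0 kb of chromosome 4 and 2 loci within 5.2 kb of chromosome 9.

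U1 genes could be split by length, a grouping chosen after the values were seen. The 11 loci on genes of 164 bases had median scores of 26 and 40 in TAP, against 40.5 and 58.5 in CLIP. The 10 loci on genes of 165 or 166 bases had median scores of 14.5 and 19.5 in TAP, against 20 and 24.5 in CLIP. The shorter copies had the higher median in every library. Rnu1a1 (in intron 1 of Tex14, 164 bases) had scores of 58 and 46 in TAP and 45 and 67 in CLIP, and Rnu1b1 (165 bases, chromosome 3) had 14.5 and 21.5 in TAP and 24 and 22 in CLIP. The highest U1 score of all was 78, at Gm26444 (chr12:54729601-54729700, 164 bases) in CLIP 2.

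Regions on U1 were wider in TAP. There were 11 and 16 U1 regions of more than 1 window in TAP, against 1 and 5 in CLIP. The copy whose sequence is shown, LOC115489800, went against this. Its region spanned 2 windows in TAP 1 and 1 in TAP 2, against 2 in CLIP 1 and 2 in CLIP 2. Over the 19 copies found in all 4 libraries, bases 101 to 150 were inside a region at 71.7% and 93.1% of copies in TAP, against 37.2% and 51.7% in CLIP. Bases 126 to 134, which hold the Sm site in the 166-base sequence above, were covered at 73.7% and 94.7% of copies in TAP, against 29.8% and 45.6% in CLIP. Both TAP libraries were above both CLIP libraries at this 3′ part. Where the Sm site lies in the other copies was not tested. The 5′ end, bases 1 to 11, was covered at 47.4% of copies in all 4 libraries, and bases 1 to 50 at 68.1% and 66.4% in TAP and 68.1% and 68.1% in CLIP. On the 11 U2 copies, bases 101 to 150 were covered at 91.5% and 100% in TAP, against 100% and 100% in CLIP. The windows lie on a fixed 100-base grid, so an edge is known to the nearest window only, and copies share reads.

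**Figure D3:**
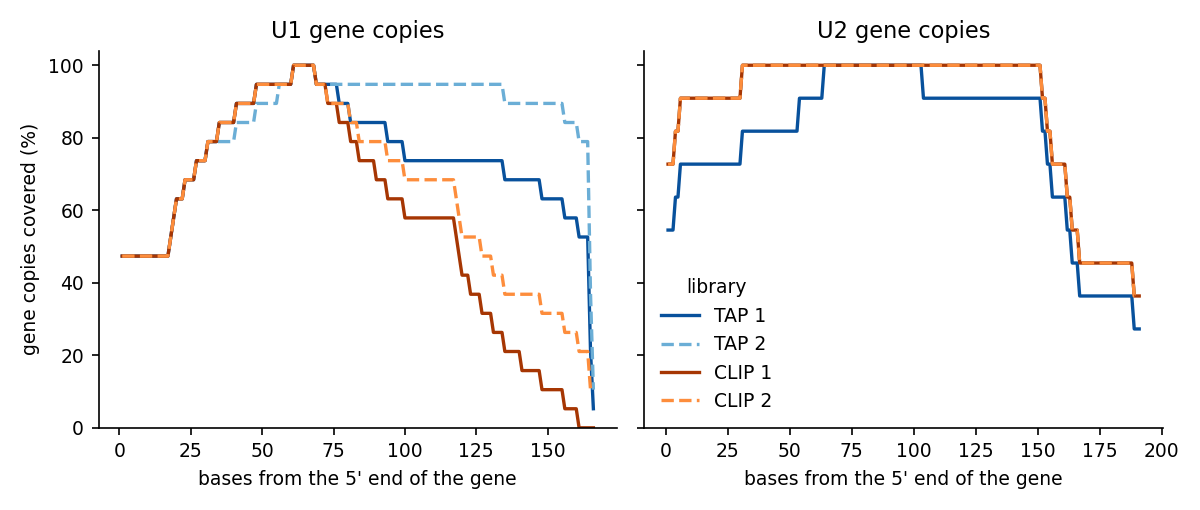
Percent of gene copies covered by a region (vertical axis) at each base from the 5′ end (horizontal axis), for U1 on the left and U2 on the right, with TAP in blue and CLIP in orange. Bases 101 to 150 of U1 were covered at 71.7% and 93.1% of copies in TAP, against 37.2% and 51.7% in CLIP.

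To compare TAP with CLIP copy by copy, log2 window totals of the 524 loci found in all 4 libraries were centred on the median locus of each library and fitted with limma, with Benjamini-Hochberg adjustment over the 524 loci. This fit was added after the files had been seen. Over all loci, 24.8% were called higher and 18.1% lower in TAP at an adjusted p under 0.05. Of the 55 small RNA loci, 16 (29.1%) were higher and 5 (9.09%) lower in TAP. The share called higher was thus near that of all loci and the share called lower was below it. Of the 16, 2 were U14 loci that counted as small RNA loci only through their TAP regions. snoRNA loci had 25 higher and 5 lower of 73, ribosomal RNA loci had 55 higher and 41 lower of 143, and the remaining loci had 34 higher and 44 lower of 253. The all-locus median of the uncentred log2 ratio was −0.82, and without centring 1 small RNA locus was called higher and 11 lower, so every direction below is relative to the median locus.

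U1 copies were on the higher side in TAP. Relative to the median locus, 9 of 19 U1 copies were higher in TAP, 0 were lower, all 19 had a positive log2 ratio, and the class median was 0.94, against −0.03 over all loci. Rnu1b6, on chromosome 3, had window totals of 41 and 54 in TAP, against 12 and 36 in CLIP. Its 2 TAP totals were above both CLIP totals, and its centred log2 ratio was 1.97 ± 0.46 (SE, limma adjusted p = 0.00667). Rnu1a1 had 58 and 92 in TAP, against 45 and 67 in CLIP, which overlap as deposited, with a centred log2 ratio of 1.20 ± 0.32 (SE, limma adjusted p = 0.0121). As deposited, the U1 median was 0.15 with no copy called. The 9 calls became 2 without CLIP 1 and 15 without TAP 1. By score rank among all regions of a library U1 was lower in TAP, with the median U1 region at the 52.4 and 58.0 percentiles, against the 58.9 and 64.7 percentiles in CLIP. With the highest region score in place of the window total, 3 U1 copies were called higher and the median was 0.32. This is a smaller ratio than with the window total, which also counts the width of a region.

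U3 copies went in both directions. Rnu3b1, Rnu3b2, Rnu3b3 and Rnu3b4 were called higher in TAP, with centred log2 ratios between 0.40 and 0.47, which as deposited were negative, between −0.39 and −0.32. Rnu3b4 had window totals of 3559 and 4962 in TAP, against 4986 and 5539 in CLIP, with 0.47 ± 0.14 (SE, limma adjusted p = 0.0194). As deposited, its TAP totals were below both CLIP totals, the U3 median was −0.39 and 3 U3 loci were called lower. No U3 locus was called without CLIP 1 or without CLIP 2, and with the highest region score 1 was higher and 1 lower. The 3 weaker U3 loci had centred ratios of −0.41, −0.26 and −0.11 and were not called. U2 had no call, 2 of its 11 loci at an unadjusted p under 0.05, and a centred median of 0.42, which was −0.37 as deposited. Without TAP 1, 7 U2 loci were called higher and the median was 0.74.

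7SL copies were mostly lower in TAP. Of 6 copies, 4 were lower in TAP and 0 higher, with a class median of −0.75, and −1.55 as deposited with 5 lower. The Zfp949 copy fell by 1.05 ± 0.17 on the centred log2 scale (SE, limma adjusted p = 0.00138), and Rn7s2 by 0.49 ± 0.13 (SE, limma adjusted p = 0.0121). The copy at chr6:69516301-69516600 had a ratio of −0.22 and was not called. Of 4 7SK copies 1 was lower, on chromosome X, with window totals of 20 and 15 in TAP against 75 and 72 in CLIP. The 7SK median was −0.23, and −1.02 as deposited with 3 lower. A U14 locus in Hspa8 (chr9:40803501-40803700) had totals of 87 and 128 in TAP, against 38 and 55 in CLIP. Its centred log2 ratio was 2.00 ± 0.30 (SE, limma adjusted p = 0.00117). Only 2 of its 4 regions, those of TAP, carried the U14 annotation. It thus counted as a small RNA locus through the method where it was higher. The same held for the U14 locus at chr9:40803801-40804100, called higher with a ratio of 1.40. A U5 copy, Gm25099, was called higher on totals of 12 and 14 in TAP and 13 and 11 in CLIP, values that overlap as deposited. Leaving out CLIP 1 left 3 small RNA loci higher and 2 lower, leaving out CLIP 2 left 10 higher and 3 lower, and leaving out TAP 1 gave 29 higher and 7 lower.

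**Figure D4:**
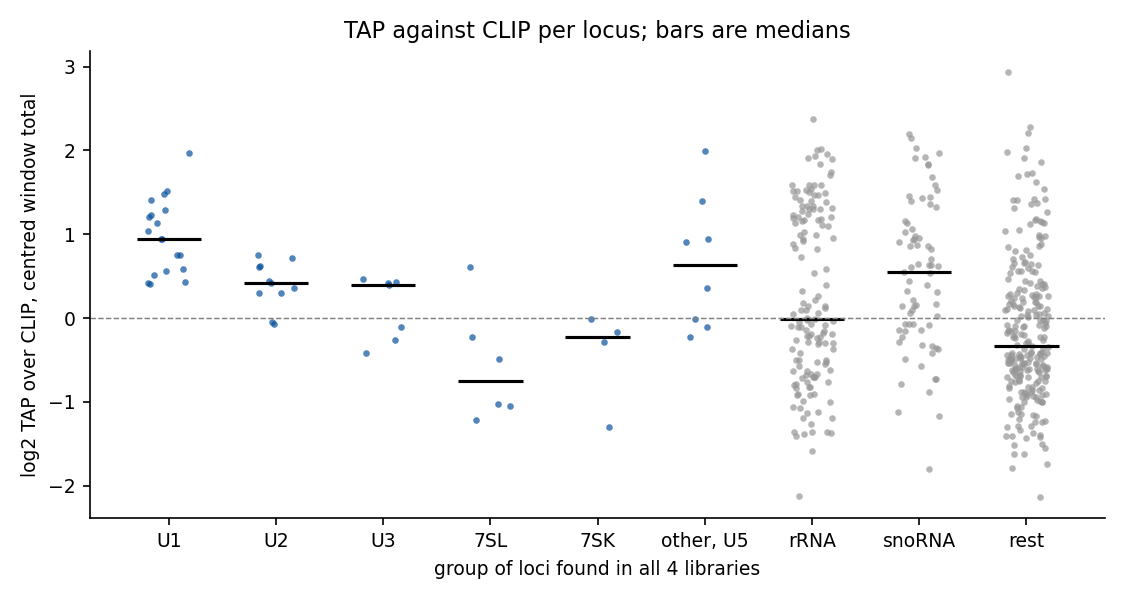
Centred log2 ratio of TAP over CLIP (vertical axis) for the loci found in all 4 libraries, by class (horizontal axis), with small RNA classes in blue and the other groups in grey, and bars at the medians. All 19 U1 copies lie above 0, and the 7SL median is −0.75.

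RNA-seq gave a second readout of these RNAs after loss of DDX18. The tables hold FPKM (fragments scaled to transcript length and library size) from mRNA isolated with a Dynabeads mRNA kit. Such a kit binds poly(A) tails, which most of these RNAs lack, so the values cover only the part that was carried through. The targeted gene was checked first. Ddx18 had 9.94 and 8.52 FPKM in KD ESCs, against 84.6 and 89.1 in controls. It had 3.08 and 3.86 in KD p53 KO ESCs, against 36.9 and 49.7 in controls, and 15.5 and 17.5 in KD EZH2 KO ESCs, against 82.5 and 89.4 in controls. In E3.5 embryos it had 2.97 and 2.86 in KO, against 11 and 22 in WT. KD and KO libraries were below their controls in all 4 tables. The median gene shifted by a log2 change of 0.30 in ESCs, 0.34 in p53 KO ESCs, 0.09 in EZH2 KO ESCs and −0.31 in embryos, and changes are read against those shifts.

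None of the genes on the small RNA loci passed limma's test in the 3 full tables. The p53 KO, EZH2 KO and E3.5 tables each listed 79 genes of up to 500 bases on these loci, of which 60, 64 and 76 were listed at 0 FPKM in every library. All 24 genes on U1 loci were among them. The test covered 10, 6 and 1 of them, with 0 called at an adjusted p under 0.05 and 2, 0 and 1 at an unadjusted p under 0.05. Over all genes tested, 2.55% were called higher and 0.601% lower in p53 KO cells, 6.3% and 2.15% in EZH2 KO cells, and 0.633% and 4.55% in embryos. The ESC table holds 4769 genes, of which 55.2% were called higher and 42.6% lower, so it is a selection of genes that differed in these libraries and its values are given as a description.

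7SL RNA was measured in all 4 tables. It was lower after KD in the selected ESC table and passed the test in none of the KO backgrounds. Rn7s2 had 448 and 434 FPKM in KD ESCs, against 607 and 617 in controls. In p53 KO cells it had 1480 and 1763 FPKM after KD, against 2917 and 2195 in controls, with a log2 change of −0.65 ± 0.24 (SE, limma adjusted p = 0.13). In EZH2 KO cells it had 782 and 1175 FPKM after KD, against 898 and 757 in controls, with a log2 change of 0.22 ± 0.20 (SE, limma adjusted p = 0.529). KD libraries were below controls in ESCs and p53 KO cells and overlapped them in EZH2 KO cells. In embryos Rn7s2 had 7.64 and 5.67 FPKM in KO, against 0 and 3.76 in WT. Rn7s1, a near-identical copy that can share its reads, had 428 and 417 FPKM in KD ESCs, against 661 and 626 in controls. In embryos it had 12.7 and 5.67 FPKM in KO and was listed at 0 in both WT libraries, and it passed the test (limma adjusted p = 0.0261). At most 1 gene of the embryo table passed when any 1 library was left out. Rn7s6, a 7SL-type gene on a chosen locus, had 92.3 and 99.2 FPKM in KD p53 KO cells, against 169 and 108 in controls.

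7SK did not pass the test in either KO background, with higher values after KD in both. Rn7sk had 2196 and 2099 FPKM in KD p53 KO cells, against 1346 and 1308 in controls, with a log2 change of 0.69 ± 0.19 (SE, limma adjusted p = 0.0789). In EZH2 KO cells it had 751 and 994 FPKM after KD, against 676 and 512 in controls, with a log2 change of 0.55 ± 0.18 (SE, limma adjusted p = 0.116). The groups did not overlap in either table, and Rn7sk was listed at 0 in all embryo libraries. The all-gene median log2 change was 0.34 in p53 KO cells and 0.09 in EZH2 KO cells. After rescaling by the median ratio, the Rn7sk change was 0.28 in p53 KO cells and 0.43 in EZH2 KO cells. The Rnu3b copies could not be read singly: Rnu3b2 and Rnu3b4 had the same 26.2 and 0.0103 FPKM in KD p53 KO libraries, where Rnu3b1 and Rnu3b3 had the same 0.296 and 21.5. Rnu1b2 had 11.8 and 11.7 FPKM in KD ESCs, against 30.1 and 32.6 in controls, and was listed at 0 in the 3 full tables. The ESC table listed 5 genes of up to 500 bases on the chosen loci. A gene on a U3 locus was higher, with a log2 change of 1.82, while those on a U1, a 7SL, a 7SK (−0.74) and a further small RNA locus were lower. Genes were matched to loci by position on either strand. A gene not named here need not be the RNA of its locus, so the U3 RNA itself was not read in ESCs.

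**Figure D5:**
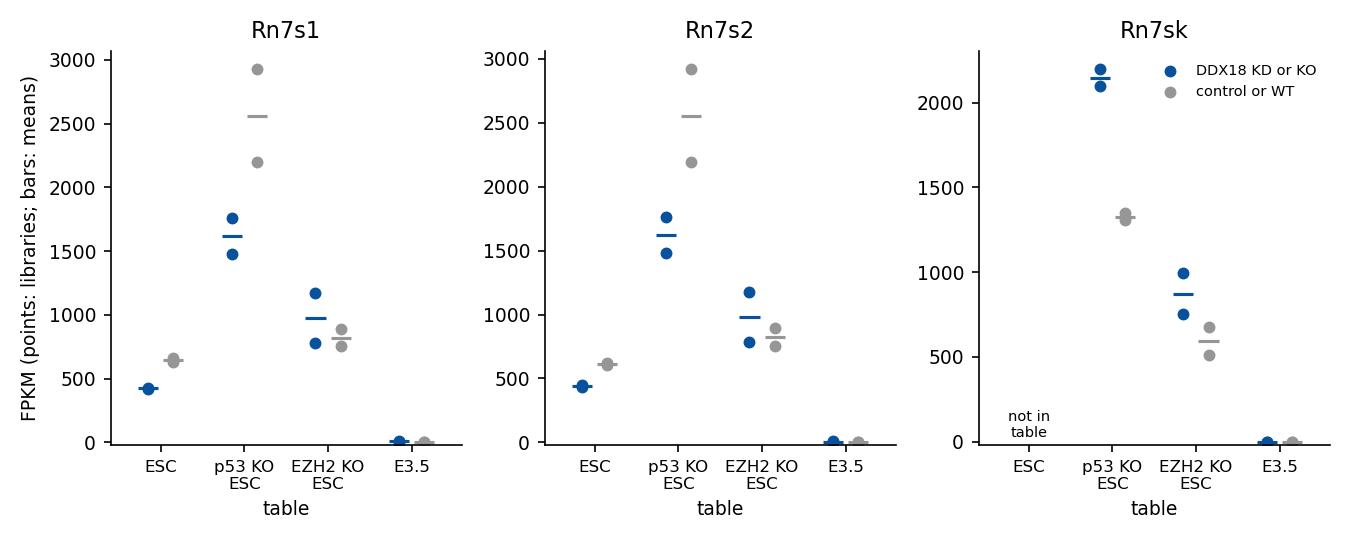
FPKM (vertical axes) of Rn7s1, Rn7s2 and Rn7sk in the 4 DDX18 tables (horizontal axes), with KD or KO libraries in blue and control or WT libraries in grey, points for libraries and bars for means. Rn7s2 was lower in KD than in control libraries of ESCs and p53 KO ESCs and overlapped in EZH2 KO ESCs, and Rn7sk was higher in KD libraries of both KO backgrounds.

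Few of the proteins that form particles with these RNAs passed the test in the full tables, as was true of genes in general. Over all genes tested, 2.55% were called higher and 0.601% lower in p53 KO cells. The shares were 6.3% and 2.15% in EZH2 KO cells, and 0.633% and 4.55% in embryos. With so few genes in a list, the counts here and in the lists below are not read as a result about the particles. Of 34 Sm and U snRNP proteins tested in p53 KO cells, 2 rose and 0 fell, with a median log2 change of 0.14, below the all-gene median of 0.34. Sf3a2, a subunit of the U2 particle, had 296 and 391 FPKM after KD, against 138 and 131 in controls, a log2 change of 1.34 ± 0.21 (SE, limma adjusted p = 0.0485). Prpf3, of the U4/U6 particle, had 99.8 and 85.4 FPKM after KD, against 45.3 and 42.4 in controls, a log2 change of 1.06 ± 0.19 (SE, limma adjusted p = 0.0493). KD libraries were above controls for both genes, but 0 genes of the whole table passed when any 1 library was left out. In EZH2 KO cells 1 of 34 fell, Snrpa1 of the U2 particle, with 33.9 and 36.9 FPKM after KD, against 51.3 and 52.4 in controls, a log2 change of −0.54 ± 0.10 (SE, limma adjusted p = 0.0335). In embryos 0 of 32 passed, with 1 at an unadjusted p under 0.05. Of the 16 listed for ESCs 15 were lower, among them Snrpa1 with 42.5 and 36.0 FPKM in KD and 91.1 and 89.4 in controls.

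The U3 particle holds Fbl, the methyltransferase of box C/D RNAs, and Nop56. Of its proteins 0 of 9 passed in p53 KO cells, 0 of 9 in EZH2 KO cells and 0 of 8 in embryos, with 0, 3 and 2 at an unadjusted p under 0.05. Fbl had 557 and 450 FPKM in KD p53 KO cells, against 457 and 373 in controls, and 337 and 368 in KD EZH2 KO cells, against 399 and 361 in controls, overlapping in both. All 3 listed for ESCs were lower, with Rrp9, which binds U3, at 64.7 and 66.4 FPKM in KD and 83.7 and 91.5 in controls.

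Of the signal recognition particle, 1 of 6 proteins rose in EZH2 KO cells, 0 of 6 passed in p53 KO cells with 1 at an unadjusted p under 0.05, and 0 of 7 passed in embryos with 2. Srp72, which binds 7SL together with Srp68, had 38.6 and 41.1 FPKM in KD EZH2 KO cells, against 28.1 and 24.9 in controls, a log2 change of 0.57 ± 0.12 (SE, limma adjusted p = 0.0376). Srp19 had 33.9 and 36.7 FPKM in KD ESCs, against 58.4 and 61.4 in controls. Of the 7SK particle, 0 of 7 passed in p53 KO cells, 0 of 7 in EZH2 KO cells and 0 of 5 in embryos, with 3, 1 and 0 at an unadjusted p under 0.05. Hexim1, the 7SK-dependent inhibitor of P-TEFb, had 24.2 and 25.1 FPKM in KD ESCs, against 15.9 and 16.2 in controls.

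RNA polymerase III transcribes 7SL, 7SK and tRNA genes. Of the listed genes of this polymerase and of SNAPc, 1 of 27 rose in EZH2 KO cells. None of 25 passed in p53 KO cells and 0 of 20 in embryos, with 7 and 1 at an unadjusted p under 0.05. Gtf3c1, a subunit of TFIIIC, had 56.8 and 60.4 FPKM in KD EZH2 KO cells, against 37.4 and 32.4 in controls, a log2 change of 0.73 ± 0.11 (SE, limma adjusted p = 0.0198). It had 52.8 and 51.8 FPKM in KD ESCs, against 22.9 and 23.1 in controls. Polr3g, a subunit of the polymerase, had 14.9 and 14.2 FPKM in KD ESCs, against 27.4 and 27.2 in controls, and of the 6 genes listed for ESCs 2 were higher and 4 lower. Of tRNA processing and La proteins, 0 of 19 passed in p53 KO cells, 0 of 19 in EZH2 KO cells and 0 of 16 in embryos, with 5, 5 and 2 at an unadjusted p under 0.05. Snrpa1, Srp72 and Gtf3c1 lost their calls in EZH2 KO cells without a filter, and when either KD library was left out. Snrpa1 and Srp72 also lost theirs when either control library was left out, and Gtf3c1 when the second was. With 1 library left out the log2 changes kept their direction. They ran from −0.60 to −0.48 for Snrpa1, 0.49 to 0.66 for Srp72 and 0.63 to 0.83 for Gtf3c1.

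Some markers of other cell types moved with the groups, and their part in these values was not tested. The 6 feeder fibroblast markers summed to 7.55 and 7.65 FPKM in KD p53 KO cells, against 24.8 and 24.8 in controls. Most of these sums was Thy1, at 5.73 and 6.86 in KD and 18.7 and 19.5 in controls. Both markers tested there, Thy1 and Col1a1, fell, and 2 of 6 were at 0 in all libraries. In EZH2 KO cells they summed to 6.70 and 7.43 in KD, against 21.2 and 13.8 in controls, where Thy1 fell, 1 of 1 tested. All 6 were at 0 in every embryo library. In ESCs Thy1, the only feeder marker listed, had 5.34 and 6.05 FPKM in KD, against 19.6 and 19.3 in controls. The 4 trophectoderm markers summed to 74.8 and 70.0 FPKM in KD EZH2 KO cells, against 28.4 and 21.3 in controls, with 2 of 3 tested higher. In p53 KO cells they summed to 75.4 and 133 in KD, against 81.1 and 65.5 in controls, which overlap, with 0 of 4 called. In embryos they summed to 47.6 and 38.1 in KO, against 191 and 192 in WT, with 2 of 4 lower. Fewer cells of a type and less RNA per cell cannot be told apart in such bulk samples. For ESCs 3 of the 4 trophectoderm markers were listed and all were higher, with sums of 148 and 114 FPKM in KD and 23.8 and 25.3 in controls. Of the 4 primitive endoderm markers, 2 were tested in each full table and 0 passed. The 1 listed for ESCs was higher. Of the 5 ESC markers, the 3 listed there were lower, Nanog fell in EZH2 KO cells, and none passed in p53 KO cells, with 3 at an unadjusted p under 0.05 by limma. In embryos 1 of the 5 ESC markers tested was lower, 4 were not called and 1 had a positive log2 change. The lower one was Nanog, a pluripotency factor, with 3.71 and 0.938 FPKM in KO embryos, against 169.5 and 87.3 in WT embryos. It fell by 5.34 on the log2 scale (limma adjusted p = 0.0234).

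The drug tables of the series gave further values for 7SL and 7SK, with no test made here. In ESCs given actinomycin D, which blocks RNA polymerase I at low dose, Rn7s1 had between 355 and 494 FPKM in 3 libraries without drug, 216 and 245 at 5 ng/ml, and 181 and 224 at 10 ng/ml. Rn7sk had between 524 and 636 FPKM without drug, 1183 and 1271 at 5 ng/ml, and 809 and 882 at 10 ng/ml. Rn7s1 was lower and Rn7sk higher at both doses than in every library without drug. In p53 KO ESCs Rn7s2 had 129.8 and 144 FPKM at 10 ng/ml, against 272 and 272 without drug. There Rn7sk had 1481 and 1648 FPKM at 10 ng/ml, against 916 and 929 without drug. CX-5461, a drug that blocks the start of ribosomal RNA synthesis, at 1 µM gave Rn7s1 401, 457 and 485 FPKM, against 705, 876 and 1069 without drug, and Rn7sk overlapped, at 180 to 249 against 174 to 318. Cycloheximide, which blocks translation, at 10 µM gave Rn7s1 228 and 258 FPKM, against 228 and 252 without drug, which overlap. Rn7s2 was higher with cycloheximide, at 241 and 297 FPKM against 218 and 237. Rn7sk was lower, at 725 and 819 FPKM against 828 and 992.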

How the data were processed

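The 2 TAP and 2 CLIP region lists were deposited with a score per region (a signal value of the authors); per the file headers, annotatePeaks.pl added the annotation for mm10. The region caller, its depth and its treatment of reads that match several copies are not given in the sources used here. FPKM tables were deposited as the authors computed them; the submitters' processing notes name CASAVA, TopHat2 2.0.11 and the builds mm9 and mm10. One emptied line per expression table and 0 columns of samples were left unused. The members and lists were chosen with earlier results of these data known.

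Regions were counted per library, scores were ranked within a library, and overlapping regions on 1 strand were merged into loci. Shares were compared with a two-sided exact permutation test. Named regions were the 3 highest of each library, the highest of each class and the 15 loci highest by mean percentile among those in all 4 libraries; genes of a list were named when called, at most 2 a list, otherwise by level. RNA genes of the same families outside the chosen regions, the window totals, and the single U1, U5, 7SK and U14 loci named in the TAP and CLIP fit were chosen after the values were seen.

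FPKM were tested as log2(FPKM + 1) with limma 3.58.1 in R 4.3.3, within each table, on genes of at least 1 FPKM in 2 libraries, with Benjamini-Hochberg adjustment and a threshold of 0.05. Fold changes on this scale understate changes of low genes, and depth is unknown. TAP and CLIP totals were fitted the same way over 524 loci. The limma fit was tested on values simulated from the means and spread of the p53 KO FPKM. Python 3.11.15, pandas 2.3.3, NumPy 2.4.6, SciPy 1.17.1 and matplotlib 3.10.9 were used. Libraries of the same number did not deviate together (correlation 0.05 for TAP and CLIP, 0.03 for embryos), so the numbers were not taken as pairs. Alternatives were other pseudocounts, filters, scalings, region sets, leaving out each library and a replicate block.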

Additional observations from a re-analysis of the deposited data

Results flagged for a closer look

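The 7SL gene Rn7s2 lay on different sides of its controls in different backgrounds. Every KD library lay below its controls in ESCs (log2 change −0.47) and in p53 KO ESCs (−0.65), and every KO embryo library lay above the WT embryo libraries (1.80). In EZH2 KO ESCs KD and control libraries overlapped (0.22). Rn7s2 did not pass limma's test in p53 KO ESCs (adjusted p = 0.13), EZH2 KO ESCs (adjusted p = 0.529) or embryos (adjusted p = 0.183), and the embryo value ran from 0.67 to 2.92 with 1 library left out. The difference between these backgrounds was not tested, and the embryo values were low, at 7.64 and 5.67 FPKM in KO and 0 and 3.76 FPKM in WT.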

How the results depend on the processing

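The higher share of small RNA regions in TAP kept its direction under the 11 alternatives run. Keeping the Snora, Snord and Scarna names could not change it, since 0 regions were excluded by name. The replicate block could not either, since the design is balanced. The difference was 2.30 to 2.53 percentage points with 1 library left out and 3.13 with regions on RefSeq small RNA genes added. It was 5.14 without ribosomal RNA and snoRNA regions in the denominator. The smallest classes, with 0 to 6 regions a library, did not keep their direction. With 1 library left out, TAP minus CLIP ranged from −0.0685 to 0.156 for U5, −0.0638 to 0.0263 for 7SK and −0.0532 to 0.0817 for tRNA. It was 0 for tRNA among scores above the library median. The median percentile of the remaining small RNAs differed by −17.8 to 0.92. Loci called numbered 225, and 105 to 304 with 1 library left out. Without centring, the medians of U2 and U3 turned to −0.37 and −0.39; the alternative leaves the all-locus shift in. Genes called in p53 KO cells numbered 367, and 0 with pseudocount 0.1, 0 without a filter, 149 after rescaling and 0 to 0 with 1 library left out. In EZH2 KO cells they numbered 996, and 18 without a filter and 0 to 339 with 1 left out. In embryos they numbered 450, and 3 with pseudocount 0.1, 0 without a filter, 124 after rescaling and 0 to 1 with 1 left out. In EZH2 KO cells the log2 change with 1 library left out ran from −0.19 to 0.61 for Rn7s6, −0.069 to 0.52 for Rn7s1 and −0.077 to 0.51 for Rn7s2. Apart from centring, the cause was not tested.

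With the replicate block, 216 loci were called, and 737 genes were called in embryos. The block cannot change the difference in the share of small RNA regions, which stayed at 2.42 points. For the 3 KD tables no paired analysis was possible because their control columns carry no sample number.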
